A study of Homo sapiens with 3 samples.

Results

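Transcripts of 10 genes of matrix breakdown and its inhibition were followed on 3 expression arrays of KYSE180 cells: the gelatinase genes MMP2 and MMP9, the membrane-type metalloproteinase genes MMP14 and MMP15, the secreted metalloproteinase genes MMP11 and MMP28, and the inhibitor genes TIMP1 to TIMP4. The members were all probe sets whose platform annotation carried exactly one of these symbols, which gave 24 of the 44988 probe sets with 1 symbol and 10 of 18132 genes. KYSE180 is an established line of human oesophageal squamous cell carcinoma, grown in RPMI1640 with fetal bovine serum and antibiotics in every group. One array each was made from control cells, from cells that received the LZRS_HOTAIR vector with Polyfect, and from cells that received 100 pmol of a mixture of Stealth siRNAs against HOTAIR with Lipofectamine2000. RNA of transfected cells was taken after 48 h. The control sample carries no statement of a reagent, a carrier plasmid or a non-targeting siRNA, so delivery reagent and HOTAIR manipulation cannot be told apart in either comparison with it, and the arms differ from each other in reagent as well. The siRNA sample is given as KYSE180 in its title and cell line field, whereas its source name calls it a HOTAIR cell line. HOTAIR had 0 probe sets under its own symbol, so the manipulated RNA was not checked. With 1 array per group there is no test, and each difference has no replicate check.

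Matrix metalloproteinases are zinc endopeptidases made as inactive precursors. The gelatinases cleave denatured collagen and the type IV collagen of basement membranes. MMP14 sits in the plasma membrane, cleaves fibrillar collagen and activates pro-MMP2 in a complex in which TIMP2 acts as a bridge at low levels and as an inhibitor at high levels. MMP11, MMP14, MMP15 and MMP28 carry a furin recognition site and are activated inside the secretory pathway. TIMPs are small secreted proteins that bind the active site of these enzymes. In carcinoma tissue stromal fibroblasts are a major source of MMP2 and TIMP2.

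Promoter sequence from RefSeq (GRCh38.p14) was found for 6 of the 10 members, and the 250 bases before the start site are printed for 4 of them, 5′ to 3′ on the strand of the gene. MMP14 and MMP15 are shown because both membrane-type genes were lowest with the vector on their probe sets of highest mean. On such probe sets TIMP1 was lowest and TIMP3 highest in siRNA cells, and these inhibitors are shown for that. TIMP3 was also lowest with the vector, as the membrane-type genes were. Capitals mark every match, on either strand, to GGGCGG (the GC box bound by SP1 family factors) or AGGAAG (a core bound by ETS family factors).
MMP14: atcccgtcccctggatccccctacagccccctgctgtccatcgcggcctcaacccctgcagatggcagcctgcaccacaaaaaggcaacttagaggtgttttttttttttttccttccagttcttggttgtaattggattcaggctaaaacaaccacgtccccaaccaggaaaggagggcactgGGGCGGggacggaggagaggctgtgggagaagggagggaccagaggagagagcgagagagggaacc
MMP15: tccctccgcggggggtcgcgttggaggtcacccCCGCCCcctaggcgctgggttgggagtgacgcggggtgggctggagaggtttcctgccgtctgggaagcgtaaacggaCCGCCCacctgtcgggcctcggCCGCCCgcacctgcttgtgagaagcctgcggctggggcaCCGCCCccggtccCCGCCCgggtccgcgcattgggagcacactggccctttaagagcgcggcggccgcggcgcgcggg
TIMP1: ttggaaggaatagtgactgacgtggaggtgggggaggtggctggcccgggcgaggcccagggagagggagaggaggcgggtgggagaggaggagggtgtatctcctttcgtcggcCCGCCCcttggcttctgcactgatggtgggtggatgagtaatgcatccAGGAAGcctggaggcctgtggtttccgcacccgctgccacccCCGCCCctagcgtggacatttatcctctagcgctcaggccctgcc
TIMP3: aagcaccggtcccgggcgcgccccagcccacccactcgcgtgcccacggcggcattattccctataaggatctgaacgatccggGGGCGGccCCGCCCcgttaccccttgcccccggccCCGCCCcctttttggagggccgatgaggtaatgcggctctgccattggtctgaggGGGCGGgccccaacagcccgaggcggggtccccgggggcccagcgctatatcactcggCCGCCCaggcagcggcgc
These stretches lie on the plus strand at chr14:22836335-22836584, chr16:58025504-58025753, chrX:47582186-47582435 and chr22:32801455-32801704, in the same order. GGGCGG was present 1 time before MMP14, 5 times before MMP15, 2 times before TIMP1 and 5 times before TIMP3, and 42.6% of all 35116 promoters of this length held it. AGGAAG was present 1 time before TIMP1 and 0 times before the other 3, beside 28.7% of all promoters. TATAAA (10.7% of all promoters) and TGANTCA, the AP-1 element (6.57%), were in none of the 4 windows. The windows differed in base composition, with 56.8% G and C for MMP14, 74.8% for MMP15, 64.8% for TIMP1 and 72.4% for TIMP3, where the median promoter held 58.0%. MMP14 had the fewest matches of the 4 and MMP15 had as many as TIMP3. These windows were chosen by the order of the arrays, and a link between matches and signal was not tested.

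Signals are log2 values, and 1 unit is a 2-fold difference. The middle signals of the arrays were alike, with medians of 5.27 (control), 5.23 (vector) and 5.25 (siRNA). Their spreads were less alike, and the control array was the narrowest. The lower and upper quartiles were 3.72 and 7.35 (control), 3.58 and 7.55 (vector), and 3.62 and 7.48 (siRNA). Probe sets of one gene, among those at or above the middle of all probe sets, differed from each other with an SD of 0.36 in the vector against control comparison, 0.39 in siRNA against control and 0.21 between the arms (5982 genes). This is a spread within arrays and not between cultures. The labelled cell type had its markers, since 8 of 10 squamous genes were measured and each of them was at 8.74 or above on every array. All 10 fibroblast markers lay below the median signal of every array, with COL1A1 the highest at 5.07, 4.86 and 4.90 in control, vector and siRNA cells. For leukocytes 5 of 7 measured markers and for endothelium 5 of 6 lay below it on every array. In such bulk RNA fewer cells of a kind and less RNA per cell cannot be told apart.

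MMP2, the gelatinase that is activated by MMP14 at the cell surface, was the member furthest from control. Its probe set of highest mean, 11743251_s_at, read 8.27 (control), 6.12 (vector) and 8.26 (siRNA). The vector array stood alone, while siRNA minus control was -0.01. Vector cells thus had 4.45-fold less MMP2 signal than control cells and 4.40-fold less than siRNA cells (log2 differences of -2.15 and -2.14). In vector minus control it ranked 13 from the lowest of 18132 genes. A separate probe set, 11741377_a_at, gave 6.56, 4.10 and 6.83, a still wider gap of -2.46 to control. The other probe sets were dimmer and gave smaller gaps. 11743250_a_at read 5.50 (control), 5.02 (vector) and 5.71 (siRNA), and 11745767_a_at read 3.91, 3.50 and 3.95, its vector value below the lower quartile of that array (3.58). All 4 MMP2 probe sets were lowest on the vector array, and their mean difference was -1.38 ± 1.08 (SD over 4 probe sets) from control and -1.50 ± 1.11 from siRNA cells. Markers of fibroblasts, a usual source of MMP2 in tissue, had a median difference of -0.26 in vector minus control over 10 genes, with the lowest at -0.39, and their summed signal was 7.30, 7.05 and 7.10 (log2) in control, vector and siRNA cells. Their part in the MMP2 signal was not tested.

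MMP9, the gelatinase of leukocytes and of invading epithelial cells, did not follow MMP2. Its single probe set read 5.34 (control), 4.96 (vector) and 4.92 (siRNA), close to the middle of each array. Both arms were slightly below control, by -0.38 and -0.42, and they differed from each other by 0.05, less than the SD between probe sets (0.21). The gap to control is about as large as the SD between probe sets, and the median of all genes was itself -0.22 in vector and -0.19 in siRNA minus control. The 7 leukocyte markers measured summed to 8.41 (control), 7.73 (vector) and 7.65 (siRNA) on the log2 scale, also below control in both arms. CD68 (7.49, 6.60 and 6.04) and TYROBP (6.76, 6.14 and 6.45) carried most of that sum, and the leukocyte gene PTPRC was at 2.74, 2.71 and 2.59. CD14 was above control in vector cells (0.35) and LYZ in siRNA cells (0.08), and the list medians of -0.33 and -0.23 were near those of all genes. Their part in the MMP9 signal was not tested.

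**Figure D1:**
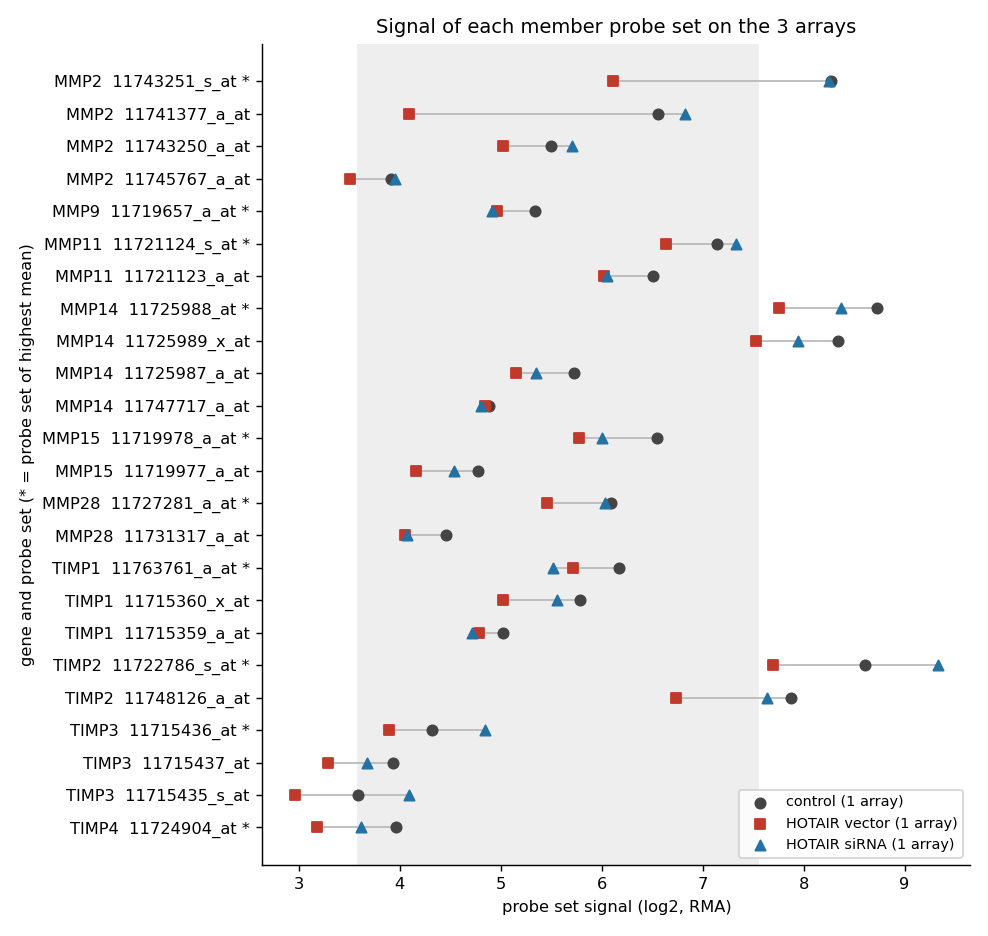
Log2 RMA signal (x axis) of the 24 member probe sets (y axis) on the control, HOTAIR vector and HOTAIR siRNA arrays, 1 point per array, with a line joining the lowest and highest; grey spans the lowest lower quartile (3.58) to the highest upper quartile (7.55) of the arrays. The vector array is the lowest point in 20 of 24 probe sets, and the widest gaps are those of 2 MMP2 probe sets.

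MMP14, the membrane protease that cleaves pro-MMP2, was lower in vector cells by just under 2-fold. Its brightest probe set read 8.73 (control), 7.76 (vector) and 8.37 (siRNA), and 11725989_x_at gave the same order with 8.34, 7.53 and 7.95. The siRNA array lay between control and vector on both. The difference was -0.97 from control (1.96-fold lower) and -0.61 from siRNA cells. 11725987_a_at kept this order with 5.73, 5.15 and 5.35, whereas 11747717_a_at was flat at 4.88, 4.85 and 4.80. Over the 4 probe sets the mean was -0.60 ± 0.41 (SD) in vector minus control and -0.30 ± 0.15 in siRNA minus control.

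MMP15, the other membrane-type enzyme among the members, showed the same order, with a smaller gap between vector and control. It read 6.55 (control), 5.78 (vector) and 6.01 (siRNA), which is -0.77 and -0.54 from control. Its other probe set read 4.78, 4.16 and 4.54. Both arms were below control on both probe sets, and the arms differed from each other by -0.23 and -0.38.

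MMP11 (stromelysin-3) and MMP28 (epilysin), secreted enzymes activated by furin, were modestly lower in vector cells. MMP11 read 7.14 (control), 6.63 (vector) and 7.33 (siRNA) on 11721124_s_at, and 6.51, 6.03 and 6.05 on 11721123_a_at. The vector value was below control on both, by -0.50 and -0.48, but the siRNA value was above control on one (0.19) and below it on the other (-0.46). MMP28, an enzyme of keratinocytes among other epithelia, read 6.09, 5.46 and 6.03, with siRNA near control and vector lower by -0.63. Its dimmer probe set, at 4.45, 4.06 and 4.08, placed both arms below control alike. So vector cells were below control for both genes on every probe set, and the position of the siRNA array depended on the probe set. The gaps to control are to be read beside the SD between probe sets (0.36) and the median of all genes (-0.22). After subtraction of that median MMP11 was at -0.29 and MMP28 at -0.41 on their brightest probe sets.

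TIMP2, the inhibitor that also docks pro-MMP2 on MMP14, was the inhibitor gene with the widest gap between the arms. On 11722786_s_at it read 8.61 (control), 7.70 (vector) and 9.33 (siRNA), so control lay between the arms. The vector value was 3.10-fold below the siRNA value (log2 -1.63), -0.91 from control, and siRNA was 0.73 above control. On 11748126_a_at it read 7.88, 6.74 and 7.64. There control was highest, vector was -1.14 and siRNA -0.24 from control, and the gap between the arms was -0.90. Vector cells were therefore lowest on both probe sets, while siRNA cells were above control on one only.

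TIMP3, the inhibitor that binds to the matrix, had the same order as TIMP2 at low signal. Its brightest probe set read 4.32 (control), 3.89 (vector) and 4.84 (siRNA), and 11715435_s_at read 3.59, 2.96 and 4.09. The gaps between the arms were -0.95 and -1.13, the latter on a probe set below the lower quartile of the control and vector arrays. The remaining probe set, at 3.93, 3.29 and 3.68, placed siRNA below control. All of these signals lay under the array medians, so the order rests on dim probe sets.

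TIMP1, the inhibitor secreted by many cell types and inducible by growth factors, was lowest in siRNA cells on its brightest probe set. It read 6.17 (control), 5.72 (vector) and 5.51 (siRNA), or -0.45 and -0.66 from control. 11715359_a_at gave 5.03, 4.79 and 4.71 in the same order, but 11715360_x_at gave 5.79, 5.03 and 5.56 with the vector lowest. TIMP4, the inhibitor best known from heart muscle, was dim on its single probe set at 3.96, 3.18 and 3.62, below the lower quartile of the array in vector and siRNA cells (3.58 and 3.62), and its order is not read. Between the arms TIMP2 and TIMP3 thus lay lower in vector cells on every probe set, and TIMP1 went different ways on its 3 probe sets (0.20, 0.08 and -0.53). The gaps of 0.20 and 0.08 are within the SD between probe sets (0.21), and the mean over the 3 was -0.08.

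**Figure D2:**
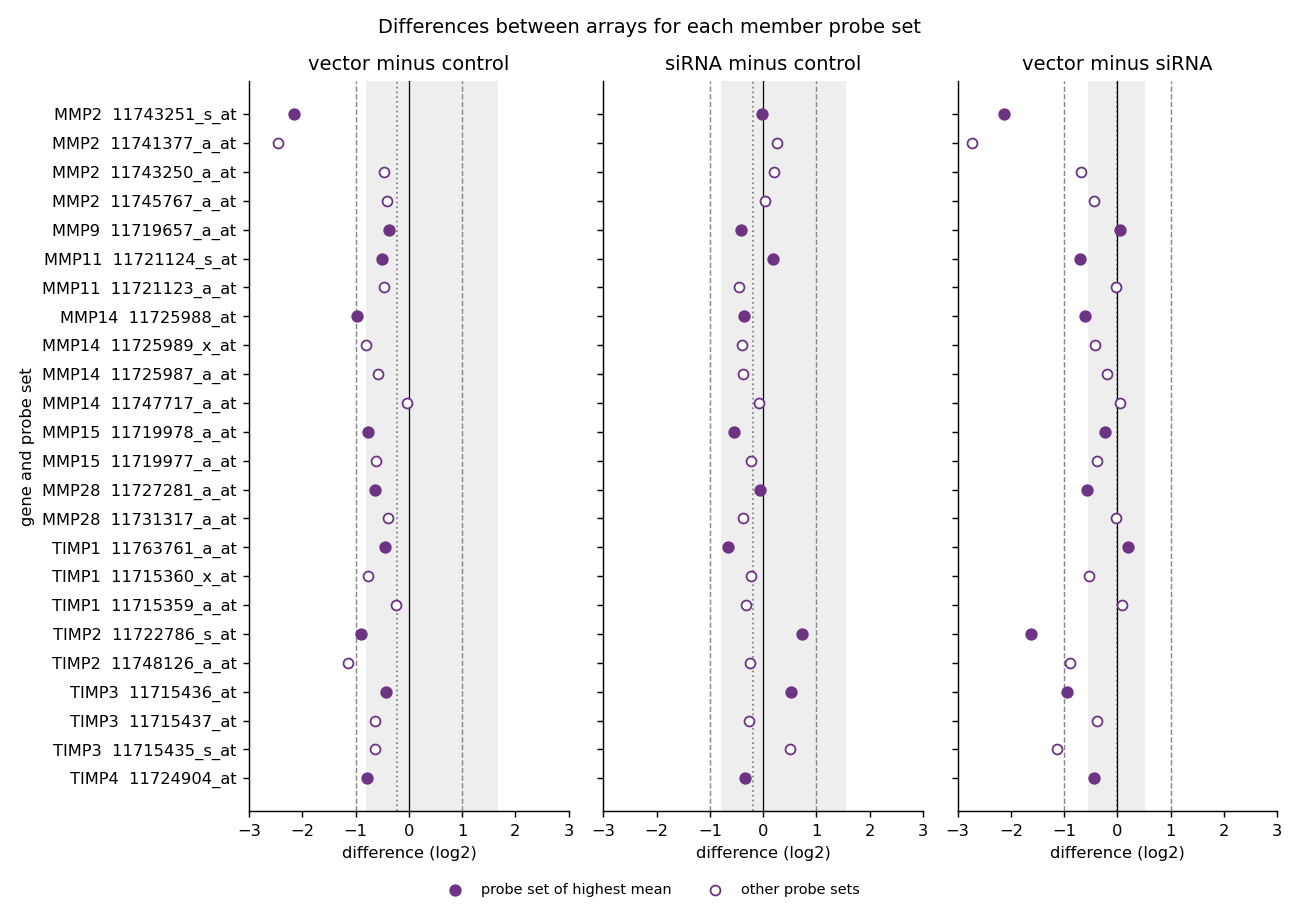
Log2 differences (x axis) of the 24 member probe sets (y axis) for vector minus control, siRNA minus control and vector minus siRNA; dashed lines mark 2-fold, the dotted line the median of all genes, grey their 5th to 95th percentile, filled points the probe set of highest mean and open points the others. All 24 points of vector minus control lie below 0, and those of siRNA minus control lie on both sides of it.

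The first comparison asked how vector cells differed from control cells. All 10 members were below control on the probe set of highest mean, beside 66.9% of all genes, and all 24 member probe sets were, beside 63.9% of all probe sets. Of the 10 members 1, MMP2, was at least 2-fold lower and 0 higher, where 1.45% of all genes were lower and 10.1% higher. At 1.5-fold 6 of 10 were lower (MMP2, MMP14, MMP15, MMP28, TIMP2 and TIMP4) beside 16.3% of all genes, with TIMP4 counted by its value although it was too dim for its order to be read. The median of the members was -0.70 and that of all genes -0.22. After subtraction of that median MMP2 was at -1.93, MMP14 at -0.75, TIMP2 at -0.69 and MMP9 at -0.16. MMP14 and TIMP2 lay just inside the 2-fold line, and both passed it when quantile normalization was repeated on the deposited values (-1.15 and -1.09). TIMP2 also passed with the mean over its probe sets (-1.02).

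The second comparison asked how siRNA cells differed from control cells. Of the 10 members 0 were 2-fold higher and 0 lower, beside 9.81% and 1.19% of all genes. Their median was -0.20, and that of all genes was -0.19. TIMP2 (0.73), TIMP3 (0.52) and MMP11 (0.19) were above control, and each had a probe set below it. The other 7 were below it, beside 65.6% of all genes, with TIMP1 (-0.66) and MMP15 (-0.54) the lowest. At 1.5-fold 1 member was higher (TIMP2) and 1 lower (TIMP1), beside 15.3% and 13.6% of all genes. MMP2 (-0.01) and MMP28 (-0.06) were nearest to control, with signs that turned when differences were centred or after cyclic loess. The comparisons with control share the control array, so their values stand side by side and their likeness is not read.

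The third comparison set the arms against each other without the control array. Of the 10 members 2, MMP2 (-2.14) and TIMP2 (-1.63), were at least 2-fold lower in vector cells and 0 higher, beside 1.46% and 1.37% of all genes. At 1.5-fold TIMP3 (-0.95), MMP11 (-0.70) and MMP14 (-0.61) joined them, which made 5 of 10 beside 4.06% of all genes. Their median was -0.59, and that of all genes was -0.01. MMP28 (-0.57), TIMP4 (-0.44) and MMP15 (-0.23) were also below 0, which made 8 of 10 beside 52.1% of all genes, while MMP9 (0.05) and TIMP1 (0.20) were above it. TIMP2 was at -0.90 without probe sets whose names end in _x_at or _s_at, which leaves MMP2 alone past 2-fold. The vector array was the lowest of the arrays for 8 of 10 members, beside 40.1% of all genes, and the 8 include the dim TIMP4. The exceptions were MMP9 and TIMP1, whose gaps between the arms (0.05 and 0.20) are within the SD between probe sets (0.21). Among member probe sets the vector array was the lowest in 20 of 24, beside 37.6% of all probe sets. That count includes near ties with the siRNA array. On 11721123_a_at (MMP11) and 11731317_a_at (MMP28) the arms differed by -0.02 each, less than the SD between probe sets (0.21).

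**Figure D3:**
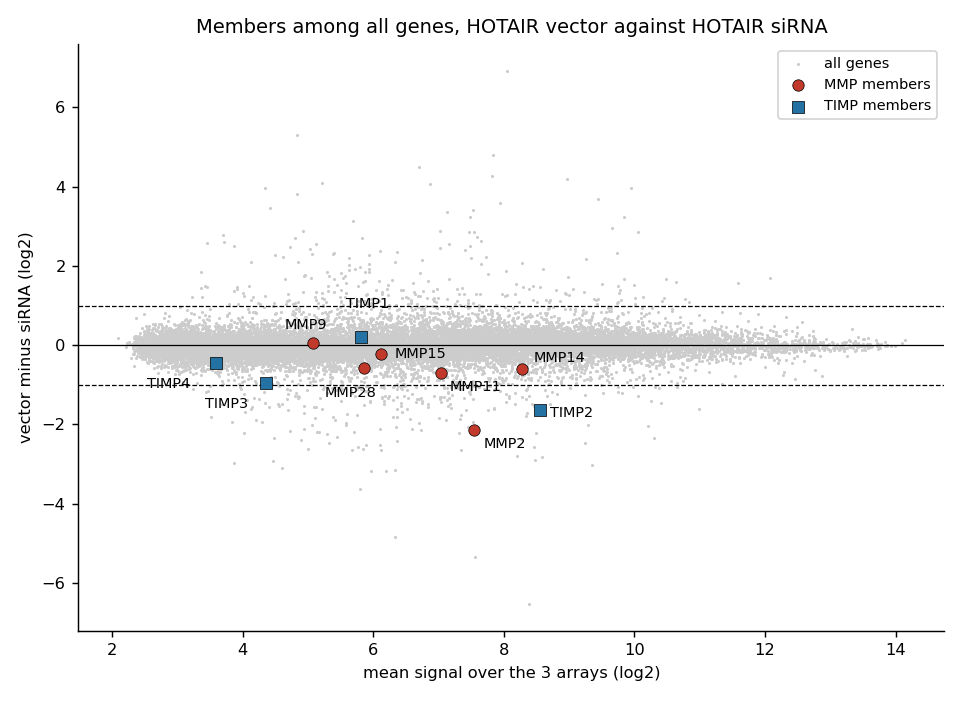
Vector minus siRNA difference (y axis, log2) against the mean signal over the 3 arrays (x axis, log2), 1 point per gene for 18132 genes, with the 6 MMP and 4 TIMP members named; dashed lines mark 2-fold. MMP2 and TIMP2 lie below the lower dashed line and the other 8 members between the lines.

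The 5 genes closest to MMP2 were sought among 10917 genes at or above the middle signal, by Euclidean distance over vector minus control and siRNA minus control. They were the adaptor gene NEDD9 (distance 0.10), the transcription factor gene MAF (0.15), CCDC3 (0.35), the Wnt ligand gene WNT11 (0.40) and RFLNB (0.42). NEDD9 read 10.03 (control), 7.92 (vector) and 9.93 (siRNA), and MAF 8.27, 6.19 and 8.12. Each of the 5 was low on the vector array alone, which the choice by distance to MMP2 fixed in advance. The likeness is over 3 arrays only, and with the mean over probe sets MAF was at -1.19 from control and -0.93 from siRNA cells.

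Genes around the members in the same pathway were read from 5 lists. Of 16 other metalloproteinase genes measured, the vector array was 2-fold or more below control for 3 and above it for 0, beside 1.45% and 10.1% of all genes. The 3 were the secreted enzymes MMP1 (-6.83), MMP10 (-7.41) and MMP13 (-3.33), each further from control than MMP2. The median of the 16 genes was -0.40. The same 3 of 16 were 2-fold lower in vector than in siRNA cells (-5.35, -6.53 and -3.18) and 0 higher, beside 1.46% and 1.37% of all genes. MMP13 read 7.13 (control), 3.80 (vector) and 6.97 (siRNA), the order of MMP2 on its brightest probe set, and averaged -1.49 ± 1.19 (SD) in vector minus control over its 5 probe sets. The membrane-anchored MMP17 (-0.53), MMP24 (-0.64) and MMP25 (-0.42) were also below control in vector cells, and in siRNA cells (-0.47, -0.38 and -0.40). Between the arms MMP24 differed by -0.26, and MMP17 and MMP25 by -0.06 and -0.03. The membrane-type MMP16, dim on every array, was at -0.02 and -0.25. Of these 16 genes 10 lay under the median signal on every array, among them MMP3, MMP7 and MMP12. In siRNA minus control 1 of 16 was 2-fold lower, MMP1, and 0 were higher, beside 1.19% and 9.81% of all genes.

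The proprotein convertases, which cut the furin site of MMP11, MMP14, MMP15 and MMP28, had 0 of 4 genes past 2-fold in any comparison. FURIN read 6.67 (control), 5.80 (vector) and 5.71 (siRNA). It was below control in both arms, by -0.86 and -0.95, and the arms differed by 0.09. PCSK7 was below control in both as well (-0.28 and -0.70), and PCSK5 was above control in both, by 0.58 and 0.53.

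Among 15 partners and other inhibitors, 2 were 2-fold higher (ITGAV and LCN2) and 1 lower (SERPINF1) in vector minus control, and in siRNA minus control 2 were higher (ITGAV and CLDN1) and 0 lower. Of all genes 10.1% and 9.81% were 2-fold higher in these comparisons, so 2 of 15 is near the background. For lower genes the shares were 1.45% and 1.19%. Between the arms LCN2 was 2-fold higher in vector cells and SERPINF1 (-1.32) lower, 1 of 15 each, beside 1.37% and 1.46% of all genes. ITGAV, 1 integrin chain of a receptor that can hold MMP2 at the surface, read 7.53 (control), 9.06 (vector) and 9.73 (siRNA). Both arms were thus above control (1.53 and 2.20, or 0.98 and 1.31 with the mean over 5 probe sets). The integrin chain gene ITGB3, also in this list, went the other way at low signal. It read 4.76 (control), 3.84 (vector) and 4.24 (siRNA), or -0.92 and -0.52 from control, so a rise of the receptor is not read. LCN2, which forms a complex with MMP9, read 4.69, 5.71 and 4.36 and was the gene of this list 2-fold higher in vector than in siRNA cells (1.35). SERPINF1, a secreted antiangiogenic serpin, read 5.24, 4.02 and 5.34 on its brightest probe set, low on the vector array alone as MMP2 was. Over its 5 probe sets it averaged -0.78 from control, short of 2-fold, and -1.01 from siRNA cells. CLDN1, a claudin reported to aid the activation of pro-MMP2, was 1.08 above control in siRNA cells on its brightest probe set and 0.34 over its 4. The mean signals of LCN2, SERPINF1 and CLDN1 lay below the median of probe set means (5.28), so their calls rest on dim probe sets. The membrane inhibitor gene RECK (5.17, 4.95 and 5.16) and the inducer gene BSG (8.89, 8.42 and 8.07) did not reach 2-fold.

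Of 12 substrate genes measured, 2 were 2-fold lower in vector cells than in control cells and also than in siRNA cells, beside 1.45% and 1.46% of all genes, and 0 were higher. They were COL4A1 (8.69 (control), 7.55 (vector) and 9.05 (siRNA)) and COL4A2 (8.61, 7.17 and 8.45), the chains of the common type IV collagen of basement membranes and substrates of MMP2 and MMP9. Vector was the low array for both. With the mean over 3 probe sets they were at -0.66 and -1.03 from control and at -0.84 and -0.73 from siRNA cells, so of these 4 values only that of COL4A2 against control was past 2-fold. Of 17 genes for transcription factors known to act on metalloproteinase promoters 1 was 2-fold lower in vector cells than in either other group (the same 1.45% and 1.46% of all genes), ETS1, at 8.54 (control), 7.42 (vector) and 9.12 (siRNA), the order that TIMP2 had on 11722786_s_at. Its 3 probe sets averaged -1.33 ± 0.19 (SD) in vector minus control and -1.17 ± 0.48 in vector minus siRNA. In siRNA minus control they averaged -0.16 ± 0.63, so siRNA cells were not above control on every probe set. In vector minus control the list medians were -0.12 for the convertases, -0.01 for the partners, -0.31 for the substrates and -0.25 for the transcription factors, beside -0.22 for all genes. AP-1 genes did not reach 2-fold in any comparison, with FOSL1 at -0.83 and FOSL2 at 0.72 in vector minus control.

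**Figure D4:**
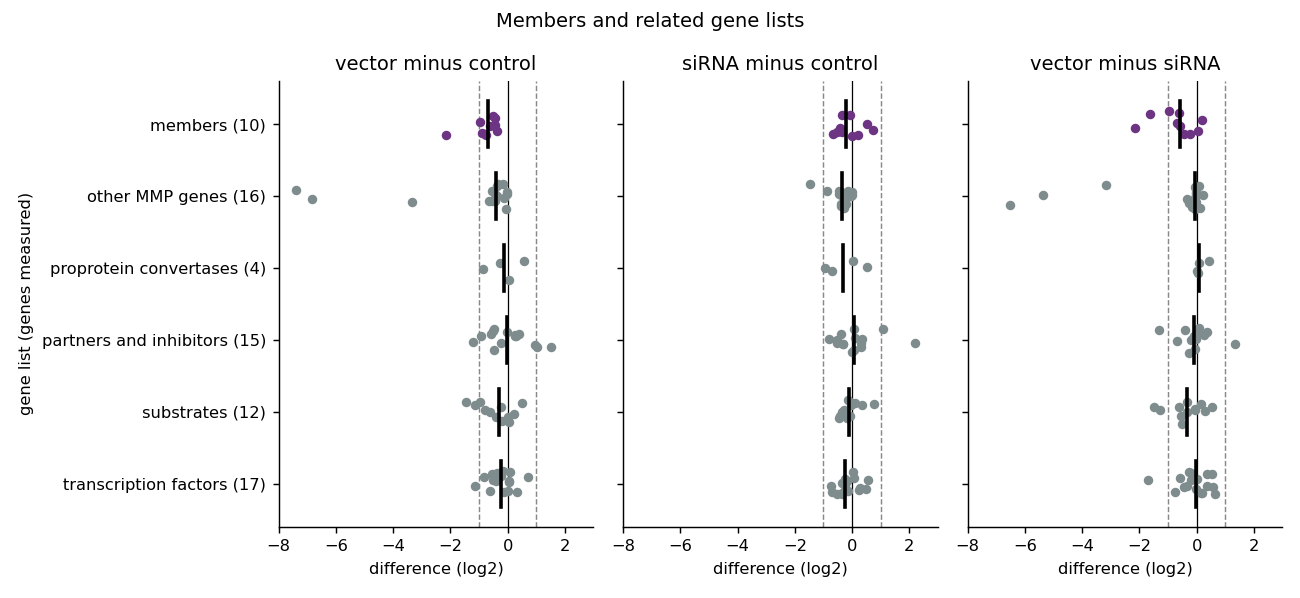
Log2 differences (x axis) of the members and of 5 related gene lists (y axis, with the number of genes measured), 1 point per gene and a black bar at each list's median, for each pair of arrays; dashed lines mark 2-fold and points are spread vertically for sight only. The member median is -0.70 in vector minus control, -0.20 in siRNA minus control and -0.59 in vector minus siRNA, and the far left points are MMP10, MMP1 and MMP13.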

How the data were processed

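Total RNA was labelled with biotin by a 3′ IVT kit and hybridised to 1 array per group, per the labels' protocols. The authors deposited a log2 signal per probe set, computed with RMA, per the submitters' processing notes. The log2 scale was read from their range, and the version and settings of RMA were not given in the sources used here. Groups came from the treatment label. Of 49293 probe sets, those with 1 symbol in the platform annotation were used. Where a gene had several, the probe set of highest mean over the arrays stood for it, and no filter was set in the main comparison, so that all 10 members were counted. Of these, 7 had a mean at or above the median of probe set means (5.28), and MMP9, TIMP3 and TIMP4 did not. Calls were made at 2-fold, with no test. Members, lists and the rules for named genes (all members, list genes past 2-fold or else the most different, and the 5 genes nearest to MMP2) were chosen with earlier results of these data known. Genes named beyond those rules were chosen after their values were seen. Alternatives were the mean over probe sets, leaving out _x_at and _s_at probe sets, filters at the median and the 75th percentile, repeated quantile normalization, cyclic loess (span 0.4, 3 cycles), centring, and thresholds of 1.5-fold and 3-fold. The steps were tested on simulated arrays. Promoters came from RefSeq (GRCh38.p14). Python 3.11.15, numpy 2.4.6, pandas 2.3.3, matplotlib 3.10.9, R 4.3.3 and limma 3.58.1 were used.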

Additional observations from a re-analysis of the deposited data

How the results depend on the processing

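No paired analysis was possible because each group has 1 array. MMP2 stayed at least 2-fold lower in vector cells under every alternative run, between -2.46 and -1.38 from control and between -2.73 and -1.50 from siRNA cells. The count of members 2-fold lower in vector minus control was 1, and became 2 with the mean over probe sets, 2 without _x_at and _s_at probe sets and 3 after repeated quantile normalization, where 0.96%, 1.39% and 2.99% of all genes were lower. In vector minus siRNA it was 2, and 1 without _x_at and _s_at probe sets, beside 1.46% and 1.32% of all genes. At 1.5-fold the lower members numbered 6 in vector minus control, 5 in vector minus siRNA and 1 in siRNA minus control. Of all genes 16.3%, 4.06% and 13.6% were lower. In siRNA minus control 1 member was higher, beside 15.3% of all genes. The member median for vector minus siRNA was -0.33 with the mean over probe sets and -1.63 for the 3 members left by the filter at the 75th percentile. For siRNA minus control it turned to 0.022 after cyclic loess, which moved the median of all genes from -0.19 to -0.0077. In vector minus control cyclic loess moved that median from -0.22 to -0.037. There 1836 genes were 2-fold higher and 263 lower, against 1648 and 543 after repeated quantile normalization. In siRNA minus control the counts were 1779 and 215, against 1652 and 415. Of 180 values of single members under these alternatives 4 gained and 1 lost the 2-fold call, and 10 changed sign, none of them called. Some of the 180 could not move, so that number overstates the checks made. The filters leave a member's value as it is, and averaging over probe sets cannot alter MMP9 and TIMP4, with a single probe set each. Leaving out _x_at and _s_at probe sets could change only MMP2, MMP11 and TIMP2. The number of arrays, with the low signals of TIMP3 and TIMP4, limits the precision.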

Other observations

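In RefSeq 4 members overlap a gene that was measured. TIMP1 lies within the synapsin gene SYN1, TIMP3 within SYN3 and TIMP4 within SYN2, and C17orf50 overlaps MMP28. SYN1 read 5.15 (control), 4.46 (vector) and 4.70 (siRNA), the order of TIMP1 on 11715360_x_at, while the other 2 TIMP1 probe sets were lowest in siRNA cells. SYN3 read 4.61 in control and 4.12 in both arms, whereas TIMP3 differed by -0.95 between them. SYN2 read 3.59, 3.62 and 3.68, dim as TIMP4 was, and neither order is read. C17orf50 read 5.11, 4.41 and 4.27, below control in both arms, whereas MMP28 was near control in siRNA cells on its brightest probe set and below control in both arms on the other. The part of these genes in the member signals was not tested. All of these host and neighbour signals lay below the array medians.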
